A study of Mus musculus with 4 samples.

Results

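The drug-metabolizing enzymes described here are the cytochrome P450s, flavin monooxygenases, carboxylesterases, alcohol and aldehyde dehydrogenases, glucuronosyltransferases and sulfotransferases that liver RNA of wild-type and PEPCK-TAg mice held on Affymetrix MG_U74Av2 arrays. Members were the probe sets whose single gene symbol began with Cyp and a digit, Ces, Fmo, Ugt, Sult, Aldh, or Adh and a digit. This gave 80 probe sets of 60 genes out of 12422 probe sets. The rule left out 15 named genes (14 of them on the array, with 15 probe sets), most of them enzymes of bile acid, sterol or fatty acid metabolism or Cyp2b genes. A further 8 probe sets that carry several symbols of these families were left out too. The prefix Fmo also took in Fmod, the gene of the matrix proteoglycan fibromodulin, which is no enzyme and whose 2 probe sets had signals of 2.9 to 8.4.

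The series asks how liver gene expression changes when small amounts of 2 SV40 oncoproteins, large T and small t antigen, are present for long. It holds 4 arrays of total liver RNA, 2 from non-transgenic mice and 2 from PEPCK-TAg mice, in which both viral proteins are made from the promoter of Pck1, the PEPCK gene of glucose synthesis. All mice were male B6SJL hybrids of 58 to 60 days and had eaten a diet with 10% protein and 70% carbohydrate for 4 weeks from weaning, so the diet was common to both groups. The labels do not say whether each array came from its own animal or from pooled animals, or how many transgenic lines were used. P-values therefore set the difference between groups only against the spread of these arrays within a group, which could be technical.

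Drug metabolism in the liver runs in steps. P450s and flavin monooxygenases insert oxygen into foreign compounds, steroids and fatty acids, carboxylesterases split esters, and alcohol and aldehyde dehydrogenases oxidize alcohols to acids. Glucuronosyltransferases and sulfotransferases then attach a sugar acid or a sulfate group, which makes the product soluble enough for transport into bile or urine. Most of these genes belong to large families of similar copies, many are transcribed mainly in hepatocytes, and several are under the control of receptors that bind foreign compounds.

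In PEPCK-TAg liver 8 of the 53 member probe sets that could be tested were lower, and 0 were higher (limma, Benjamini-Hochberg adjusted p under 0.05 over all 7453 probe sets tested). Of all tested probe sets, 3.07% were lower and 6.40% were higher, so members were called lower at 15.1%, and higher at 0%. Of those with a mean signal of at least 1000, 11.96% were lower and 6.14% were higher, and the members there gave 23.3% and 0%. The 8 probe sets read 6 genes, namely the P450 genes Cyp2d10 and Cyp2d26, the carboxylesterase genes Ces1c and Ces1d, the mitochondrial aldehyde dehydrogenase gene Aldh2, and the sulfotransferase gene Sult5a1. The median log2 change of the tested members was -0.36 against 0.01 for all tested probe sets, and 42 of the 53 had a change below 0. At an unadjusted p under 0.05, 22 of the 53 members were lower and 1, Ces2g, was higher. Of all 7453 tested probe sets, 823 (11.0%) were lower and 1156 (15.5%) were higher at that p. Both PEPCK-TAg arrays lay below both wild-type arrays for 26 of the 53 members (49.1%) and above them for 4 (7.55%). This held for 26.3% and 30.2% of all tested probe sets. At a mean signal of at least 1000 they lay below for 63.3% of members and 47.2% of all, and above for 10% and 20.7%. With each of the 4 arrays left out in turn, 4 to 8 members were called lower (4 without wild-type array 2 or PEPCK-TAg array 1, and 5 without PEPCK-TAg array 2). Of the 8 calls, 3 or 4 were kept in each of these. Without the filter on low signals 2 members were called, both probe sets of Cyp2d10.

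The deposited values are linear MAS5 signals, and log2 changes are PEPCK-TAg minus wild type of log2(signal + 13), which understates the change of dim probe sets. A probe set was tested when its mean over the 4 arrays reached the 40th percentile, near a signal of 48.1. The other 27 member probe sets had signals between 0.1 and 64.4 and are given below by their signals only. Levels of different probe sets are not compared, because each probe set binds with its own strength. In liver RNA, fewer cells of a type and less RNA per cell cannot be told apart.

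**Figure D1:**
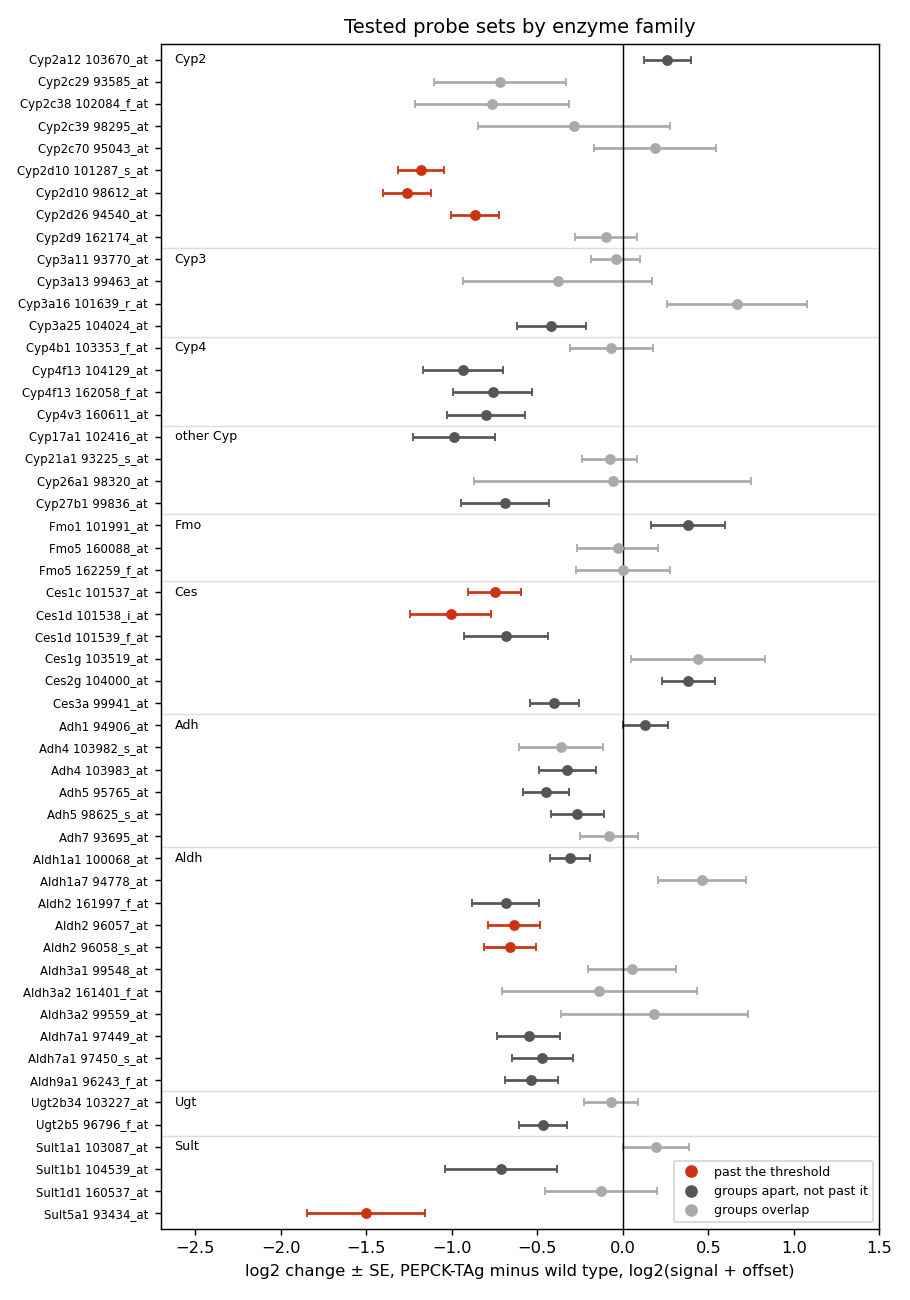
Log2 change (PEPCK-TAg minus wild type, log2(signal + 13), x axis) with its SE for each of the 53 tested probe sets, grouped by enzyme family (y axis). Red points passed the threshold, dark grey points had groups apart without passing it, and light grey points had overlapping groups; 42 of the 53 points lie left of 0, and all 8 red points do.

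All P450 calls among the members were of Cyp2d genes, while P450 genes that the rule left out, such as Cyp7b1, Cyp1a2 and the Cyp2b genes, also passed. Cyp2d10 and Cyp2d26 belong to the subfamily that in humans oxidizes many basic drugs, and in the mouse genome they lie near each other on chromosome 15. The Cyp2d10 probe set with no mark for shared sequence measured 9381 and 8075 in wild type against 3465 and 3795 in PEPCK-TAg. Both transgenic arrays were far below both wild-type arrays, with means of 8728 ± 924 (SD, n = 2) and 3629.85 ± 233 (SD, n = 2). Cyp2d10 fell by 1.26 ± 0.14 (SE) on the log2 scale (limma with Benjamini-Hochberg adjustment, adjusted p = 0.00451). A second Cyp2d10 probe set, whose suffix marks sequence that related genes can share, measured 11573 and 10107 in wild type against 4626 and 4912 in PEPCK-TAg. It fell by 1.18 ± 0.13 (limma, adjusted p = 0.00454). Both probe sets of Cyp2d10 remained called under all 13 alternatives, and no other member did.

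Cyp2d26 measured 8348 and 7366 in wild type against 4017 and 4604 in PEPCK-TAg, and fell by 0.86 ± 0.14 (limma, adjusted p = 0.0157). It was not called without wild-type array 1 (adjusted p 0.0572) or PEPCK-TAg array 1 (adjusted p 0.0730). Cyp2d9, a male-predominant gene of the same subfamily, measured 561 and 452 in wild type against 495 and 445 in PEPCK-TAg, with overlapping groups (limma, adjusted p = 0.781). Genes of this subfamily are similar in sequence, so a probe set may read more than 1 of them. Whether the change of Cyp2d10 differs from that of Cyp2d9 was not tested.

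The 250 bases before the transcription start of these 3 genes are shown because they are neighbours and relatives. Cyp2d10 and Cyp2d26 were called lower and Cyp2d9 was not. The window of Cyp3a11, a P450 gene on another chromosome whose groups overlapped, is shown with them. All windows come from RefSeq (GRCm38.p6, a C57BL/6J genome, not the B6SJL hybrids of the study) and read 5′ to 3′ in the direction of transcription. Capitals mark 3 motifs on either strand, the TATA box motif TATAAA, the motif ACAAAG, and the longer motif CAAAGTCCA, where CAAAGTCCA, a sequence bound by the hepatocyte factor HNF4A, can overlap ACAAAG. The windows are chr15:82407195-82407444 on the minus strand for Cyp2d10, chr15:82794246-82794495 on the minus strand for Cyp2d26, chr15:82452127-82452376 on the plus strand for Cyp2d9 and chr5:145879855-145880104 on the minus strand for Cyp3a11.
Cyp2d10: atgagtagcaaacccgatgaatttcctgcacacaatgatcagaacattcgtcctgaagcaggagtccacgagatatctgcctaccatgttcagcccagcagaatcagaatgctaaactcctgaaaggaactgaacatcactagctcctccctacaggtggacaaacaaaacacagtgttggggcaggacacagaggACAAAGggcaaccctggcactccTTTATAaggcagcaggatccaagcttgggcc
Cyp2d26: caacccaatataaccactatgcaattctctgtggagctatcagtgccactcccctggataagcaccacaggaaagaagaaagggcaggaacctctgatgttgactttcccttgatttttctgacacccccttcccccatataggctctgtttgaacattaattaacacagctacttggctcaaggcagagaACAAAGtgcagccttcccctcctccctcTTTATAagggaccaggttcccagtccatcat
Cyp2d9: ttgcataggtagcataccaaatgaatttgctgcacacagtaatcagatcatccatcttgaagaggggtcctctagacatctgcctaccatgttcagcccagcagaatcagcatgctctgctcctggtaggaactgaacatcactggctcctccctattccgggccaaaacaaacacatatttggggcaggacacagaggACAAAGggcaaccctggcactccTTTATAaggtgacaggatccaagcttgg
Cyp3a11: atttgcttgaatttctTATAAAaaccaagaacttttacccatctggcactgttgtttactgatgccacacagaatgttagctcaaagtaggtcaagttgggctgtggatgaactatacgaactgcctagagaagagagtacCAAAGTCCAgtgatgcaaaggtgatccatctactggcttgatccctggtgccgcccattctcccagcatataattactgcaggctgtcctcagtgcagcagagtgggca

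In the aligned windows Cyp2d10 and Cyp2d9 were 82.3% identical, and their identity to Cyp2d26 was 50.2% and 50.5%, where the unrelated window of Cyp3a11 gave 43.8% to 49.0%. An unbroken run of 51 bases, which spans both motifs, is shared by Cyp2d10 and Cyp2d9. In the 3 Cyp2d windows ACAAAG begins 51 to 59 bases before the start, and the TATA box, TATAAA on the minus strand, begins 28 to 31 bases before it. Among all 32851 promoter windows of this length in the RefSeq table, 16.5% hold ACAAAG, 12.4% TATAAA and 0.384% CAAAGTCCA on either strand. Of the 56 windows of 49 member genes matched by symbol, 23.2%, 30.4% and 5.36% hold them. ACAAAG was chosen after the windows were seen, and these matches describe letters only. Whether they bear on the signals was not tested.

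**Figure D2:**
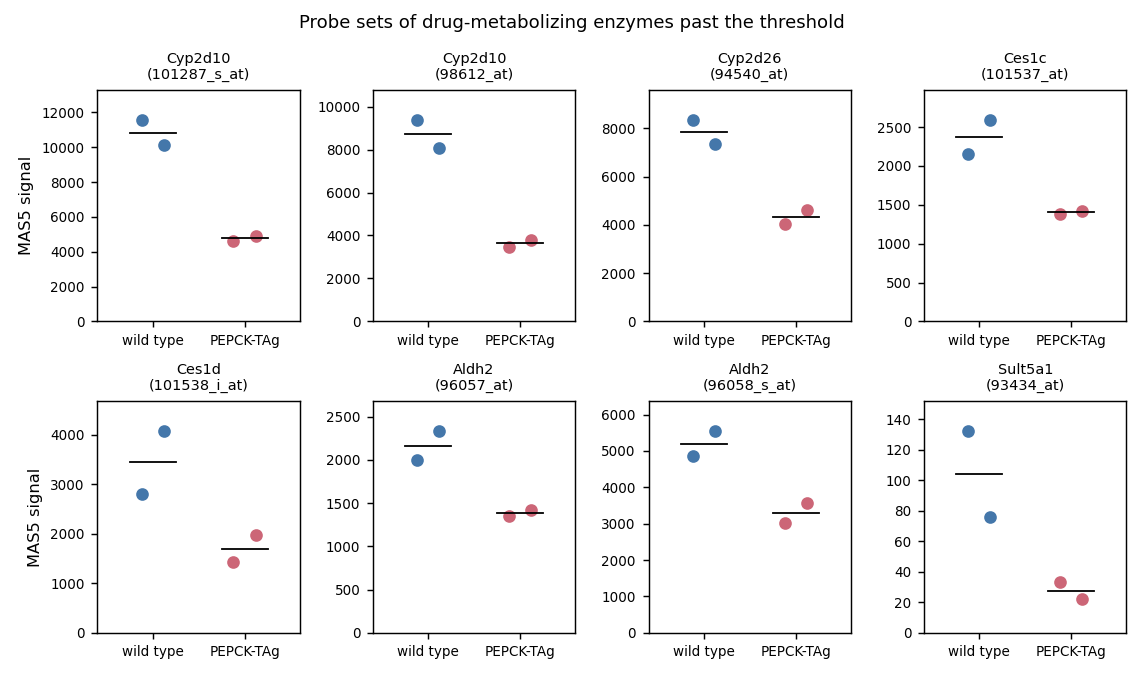
MAS5 signal (y axis, from 0) on each array for the 8 probe sets past the threshold, with replicate 1 left and replicate 2 right in each group and a line at the group mean (n = 2). Both PEPCK-TAg points lie below both wild-type points in each panel, and the widest gap relative to the spread is that of Cyp2d10.

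None of the other Cyp2 members passed, and Cyp2b9, Cyp2b10, Cyp2b13 and Cyp2f2, which did, are outside the members. Of 13 Cyp2 member probe sets 9 were tested and 3 fell, namely both probe sets of Cyp2d10 and that of Cyp2d26. Of all tested probe sets 3.07% fell, and 11.96% of those with a mean signal of at least 1000. The 4 Cyp2c genes, which hydroxylate drugs, arachidonic acid and bile acids, all had overlapping groups. Cyp2c29 measured 245 and 287 in wild type against 96.6 and 248 in PEPCK-TAg, so that 1 transgenic array was low and the other lay within the wild-type range. Cyp2c29 was called only without PEPCK-TAg array 2 (adjusted p 0.0190). Cyp2c70, whose product makes the muricholic acids of mouse bile, measured 3446 and 1546 in wild type against 2978 and 2329 in PEPCK-TAg. Cyp2a12 was 1 of the 4 members with both PEPCK-TAg arrays above both wild-type arrays, at 3446 and 3417 against 3044 and 2694, a log2 change of 0.26 ± 0.14 that did not pass (limma, adjusted p = 0.288). Cyp2b19, Cyp2j5, Cyp2j6 and Cyp2s1 were below the filter.

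No Cyp3a or Cyp4 member passed, and the Cyp4a genes, which the rule left out, are not described here. Cyp3a11, the main drug-inducible P450 of mouse liver, measured 6398 and 7845 in wild type against 7054 and 6712 in PEPCK-TAg, and the transgenic values lay between the wild-type ones (limma, adjusted p = 0.889). Its SE of 0.14 was close to that of Cyp2d10. Cyp3a25 was lower on both transgenic arrays, at 1651 and 1765 against 2749 and 1897 (log2 change -0.42 ± 0.20, limma, adjusted p = 0.246). Cyp3a13 had 948 and 1531 in wild type against 1739 and 486 in PEPCK-TAg, so its transgenic arrays held both the highest and the lowest value. It was called lower without PEPCK-TAg array 1 (adjusted p 0.0365).

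In the Cyp4 family, whose products hydroxylate fatty acids and related lipids at or near their end, 3 of 4 probe sets had groups apart and lower. Of these, 2 were of Cyp4f13, and 26.3% of all tested probe sets had groups apart and lower. Cyp4f13 measured 212 and 323 in wild type against 139 and 123 in PEPCK-TAg (log2 change -0.93 ± 0.24, limma, adjusted p = 0.0580). Its second probe set, at 119 and 124 against 76.3 and 57.2, had a change of -0.76 ± 0.23 (limma, adjusted p = 0.0927). Cyp4v3 measured 9979 and 6671 in wild type against 5383 and 4073 in PEPCK-TAg (log2 change -0.80 ± 0.23, limma, adjusted p = 0.0796). The brighter Cyp4f13 probe set was called without wild-type array 1 (adjusted p 0.0343), with quantile normalization (0.0446) and with median centring (0.0398). Cyp4v3 was called without wild-type array 2 (adjusted p 0.0364) and with median centring (0.0453). Cyp4b1 had overlapping groups, at 591 and 561 against 431 and 699.

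Among the P450s of steroid, vitamin D and retinoid metabolism, Cyp17a1 came closest to the threshold. This gene of a steroid hydroxylase and lyase measured 144 and 136 in wild type against 77.0 and 53.3 in PEPCK-TAg, with both transgenic arrays lower (log2 change -0.99 ± 0.24, limma, adjusted p = 0.0508). It passed with an offset of 50 (adjusted p 0.0472), quantile normalization (adjusted p 0.0397), median centring (adjusted p 0.0338) and cyclic loess (adjusted p 0.0449). Its second probe set was near background, between 2.9 and 6.2. Cyp27b1, the gene of the enzyme that activates vitamin D, mainly in kidney, measured 75.1 and 97.3 in wild type against 48.6 and 47.9 in PEPCK-TAg (log2 change -0.69 ± 0.26, limma, adjusted p = 0.153). Cyp26a1, whose product clears retinoic acid and which retinoic acid induces, spread more within wild type than between groups, at 728 and 95.3 against 346 and 193. Cyp21a1, an adrenal steroid hydroxylase gene read by a probe set that can share sequence, measured 423 and 399 in wild type against 409 and 369 in PEPCK-TAg. The Cyp1 genes Cyp1a1 and Cyp1b1, which the aryl hydrocarbon receptor induces, were below the filter in all 4 probe sets, at 0.1 to 52.5.

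Flavin monooxygenases oxidize nitrogen and sulfur atoms. Fmo1 measured 1424 and 2130 in wild type against 2143 and 2409 in PEPCK-TAg, with the lowest transgenic value just above the highest wild-type one (log2 change 0.38 ± 0.21, limma, adjusted p = 0.314). Fmo5 had overlapping groups in both probe sets, at 1645 and 1052 against 1410 and 1176 in the brighter one.

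The carboxylesterases were divided, with 2 of 6 tested probe sets lower, 2 lower on both transgenic arrays without passing and 2 with a higher PEPCK-TAg mean. Groups were thus apart and lower for 66.7% of them, against 26.3% of all tested probe sets and 47.2% of those with a mean signal of at least 1000. All the carboxylesterase probe sets apart and lower had a mean signal above that level. Of all tested probe sets 3.07% were called lower, and 11.96% of those at that level. Ces1c, which in mice encodes an esterase secreted into plasma, measured 2159 and 2593 in wild type against 1378 and 1427 in PEPCK-TAg. The 2 transgenic arrays were close to each other and below both wild-type arrays, a fall of 0.75 ± 0.16 on the log2 scale (limma, adjusted p = 0.0318). Ces1d, whose product is also known as triacylglycerol hydrolase, measured 2807 and 4067 in wild type against 1424 and 1972 in PEPCK-TAg, and fell by 1.01 ± 0.24 (limma, adjusted p = 0.0463). Its other, brighter probe set, of a kind that related genes can share, measured 3614 and 5785 in wild type against 2510 and 3219 in PEPCK-TAg. With a change of -0.68 ± 0.25 this one did not pass (limma, adjusted p = 0.141). It was called without wild-type array 1 (adjusted p 0.0474). Ces3a, an esterase gene of hepatocytes, was lower on both transgenic arrays, at 7800 and 6489 against 9897 and 8934 (log2 change -0.40 ± 0.14, limma, adjusted p = 0.139). Ces2g was higher on both, at 1042 and 918 against 772 and 723 (log2 change 0.38 ± 0.16, limma, adjusted p = 0.181), and Ces1g overlapped, at 166 and 279 against 199.9 and 438. The call of Ces1c was lost without wild-type array 2 (adjusted p 0.0928), PEPCK-TAg array 1 (adjusted p 0.110) or PEPCK-TAg array 2 (adjusted p 0.0909), and that of Ces1d without wild-type array 2 (adjusted p 0.124) or PEPCK-TAg array 1 (adjusted p 0.134).

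None of the 6 alcohol dehydrogenase probe sets passed in limma, with 1 lower at an unadjusted p under 0.05. Adh1, the main ethanol-oxidizing enzyme gene of liver, measured 5249 and 5945 in wild type against 6141 and 6092 in PEPCK-TAg (log2 change 0.13 ± 0.13, limma, adjusted p = 0.589), a sign that turned with arrays centred on their medians (-0.01). Adh5, whose product removes formaldehyde bound to glutathione, measured 3910 and 3701 in wild type against 2918 and 2654 in PEPCK-TAg (log2 change -0.45 ± 0.14, limma, adjusted p = 0.0934). The second probe set of Adh5, with shared sequence, moved less, at 4590 and 3996 against 3890 and 3259 (log2 change -0.27 ± 0.15, limma, adjusted p = 0.333). Adh4 was lower on both transgenic arrays in 1 probe set, at 557 and 491 against 614 and 704, and overlapped in the other. Adh7 overlapped, at 609 and 509 against 544 and 509.

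The aldehyde dehydrogenases were lower in part, with 2 of 11 tested probe sets past the threshold, both of Aldh2, and 7 with groups apart and lower. These 7 (63.6%) include 3 of Aldh2, and 26.3% of all tested probe sets had groups apart and lower. Among tested probe sets with a mean signal of at least 1000, the range of all 7, the share was 47.2%. Of all tested probe sets 3.07% were called lower, and 11.96% of those at that level. Aldh2 encodes the mitochondrial enzyme that oxidizes acetaldehyde. Its 3 probe sets gave like values for the change. The brightest, with shared sequence, measured 4854 and 5542 in wild type against 3013 and 3562 in PEPCK-TAg and fell by 0.66 ± 0.15 (limma, adjusted p = 0.0430). The second measured 1998 and 2332 in wild type against 1351 and 1415 in PEPCK-TAg and fell by 0.64 ± 0.15 (limma, adjusted p = 0.0479). The third, at 1946 and 2772 against 1398 and 1483, had a change of -0.68 ± 0.20 and did not pass (limma, adjusted p = 0.0810). No wild-type array overlapped a transgenic one in any of the 3. Both calls lay close to the threshold and were lost without any 1 array, with adjusted p of 0.0697 and 0.0669 without wild-type array 1, 0.122 and 0.132 without wild-type array 2, 0.205 and 0.174 without PEPCK-TAg array 1, and 0.0750 and 0.137 without PEPCK-TAg array 2. The third probe set was called without wild-type array 1 (adjusted p 0.0404).

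No other aldehyde dehydrogenase passed. Aldh9a1, of carnitine synthesis, measured 2121 and 2542 in wild type against 1661 and 1540 in PEPCK-TAg (log2 change -0.53 ± 0.16, limma, adjusted p = 0.0851). Aldh7a1, of lysine breakdown, measured 3007 and 2203 against 1767 and 1740 (log2 change -0.55 ± 0.18, limma, adjusted p = 0.117), and its second probe set 2694 and 2117 against 1869 and 1582. Aldh1a1, which makes retinoic acid from retinaldehyde, measured 9423 and 9146 in wild type against 7316 and 7669 in PEPCK-TAg. This change of -0.31 ± 0.12 (limma, adjusted p = 0.159) was 0.01 after cyclic loess. Its close relative Aldh1a7 overlapped and had higher means in PEPCK-TAg, at 1855 and 2650.0 against 1295 and 1986. Aldh3a2, of fatty aldehyde oxidation, and Aldh3a1 overlapped in the probe sets tested, and Aldh18a1, Aldh1a2 and Aldh1a3 were below the filter.

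Of the glucuronosyltransferases, Ugt2b5 measured 8462 and 10287 in wild type against 6754 and 6718 in PEPCK-TAg, with a probe set of the kind a gene family shares. Both transgenic arrays were lower and nearly equal (log2 change -0.47 ± 0.14, limma, adjusted p = 0.0904). Ugt2b34 had overlapping groups, at 2781 and 3491 against 2925 and 3009. Ugt8a, which makes the galactolipids of myelin, was near background at 2.5 to 8.9.

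Of 9 sulfotransferase probe sets 4 were tested and 1 fell, where 3.07% of all tested probe sets fell. Sult5a1 measured 132 and 76.1 in wild type against 33.2 and 21.9 in PEPCK-TAg, a fall of 1.5 ± 0.34 on the log2 scale and the largest change among tested members (limma, adjusted p = 0.0430). The wild-type mean of 104 ± 39.6 (SD, n = 2) was 3.78 times that of PEPCK-TAg, 27.55 ± 7.99 (SD, n = 2), and both transgenic values lay under the level near which the filter was set. Without either wild-type array the probe set fell below the filter, and without PEPCK-TAg array 2 it was not called (adjusted p 0.109). Sult1b1, of thyroid hormone sulfation, was lower on both transgenic arrays, at 63.3 and 133 against 179 and 143 (log2 change -0.71 ± 0.33, limma, adjusted p = 0.228). Sult1a1, of phenol sulfation, overlapped at 366 and 277 against 350.1 and 382, as did Sult1d1. Sult1c1, Sult2b1, Sult3a1 and Sult4a1 were below the filter, at 1.2 to 64.4.

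Several members varied more between the wild-type arrays than between groups. In 7 of the 53 tested probe sets the wild-type signals differed at least 2-fold, and in 5 the PEPCK-TAg signals did. Cyp26a1 had the widest ratio, 7.64 in wild type and 1.79 in PEPCK-TAg. Cyp2c39 measured 941 and 3437 in wild type against 1166 and 1871 in PEPCK-TAg, and Cyp2c38, whose probe set a family shares, 1678 and 4068 against 1110 and 2114. Both probe sets of Aldh3a2 were higher on wild-type array 2, 4.04 times at 1254 against 310 and 3.23 times at 1509 against 467. Cyp2c70 went the other way, and was 2.23 times higher on wild-type array 1. In these probe sets the groups overlapped, and 1 probe set of Aldh3a2 was called lower without wild-type array 1 (adjusted p 0.0479).

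**Figure D3:**
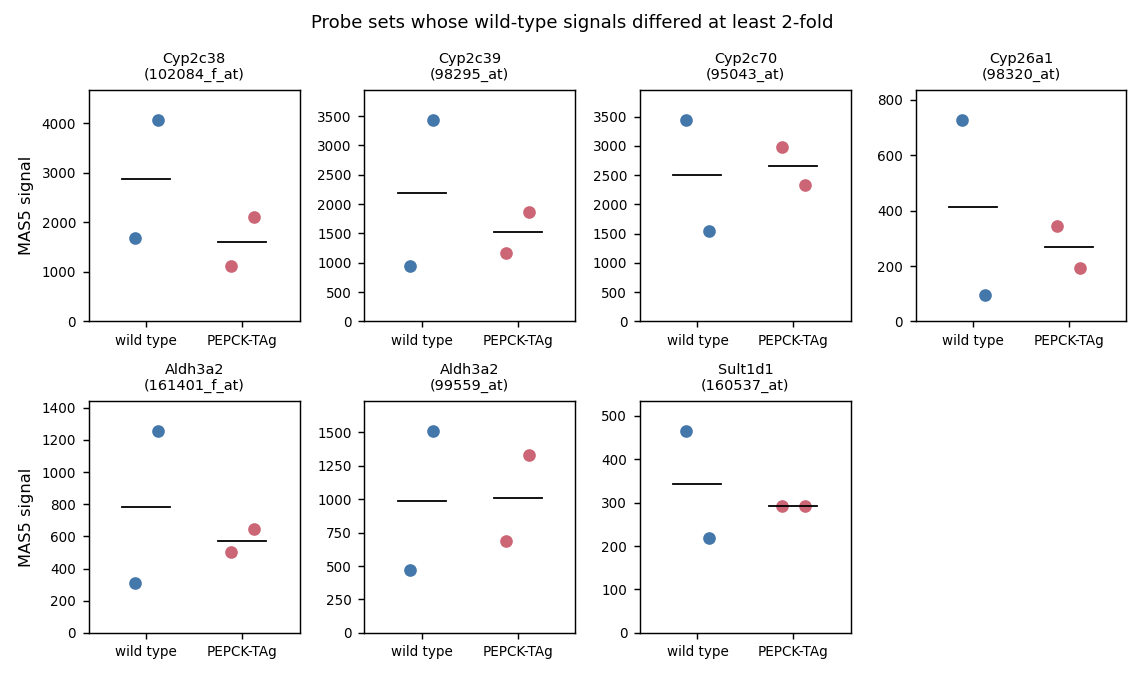
MAS5 signal (y axis, from 0) on each array for the 7 probe sets whose wild-type signals differed at least 2-fold, with replicate 1 left and replicate 2 right and a line at the group mean (n = 2). In each panel the groups overlap, and the wild-type points lie farther apart than the PEPCK-TAg points.

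P450s need electrons, which the reductase Por, cytochrome b5 and its reductase hand over. The list taken for them held genes of cytochrome b5 and its reductase, and also Fdx1 and Pgrmc1, which are neither. Of its 8 tested probe sets 1 fell and 0 rose, with a median log2 change of -0.36. At an unadjusted p under 0.05, 4 were lower, Pgrmc1 among them. Of all tested probe sets 3.07% fell, and 11.0% were lower at that p. Cyb5b, a cytochrome b5 of the outer mitochondrial membrane, measured 3675 and 3029 in wild type against 1456 and 1258 in PEPCK-TAg, and fell by 1.29 ± 0.165 (limma, adjusted p = 0.00716). Its second probe set measured 377 and 420 in wild type against 310 and 304 in PEPCK-TAg, a difference past no threshold (limma, adjusted p = 0.219). Cyb5a, the b5 of the P450 membrane, measured 6502 and 5712 against 4315 and 4459 (log2 change -0.47 ± 0.13, limma, adjusted p = 0.0774), and Cyb5r3 4469 and 3420 against 2630 and 2136 (log2 change -0.72 ± 0.19, limma, adjusted p = 0.0622). Por was not analysed here.

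Of 13 tested probe sets of receptors for foreign compounds and their partners, 2 fell and 0 rose, with 5 lower and 1 higher at an unadjusted p under 0.05. Of all tested probe sets 3.07% fell and 6.40% rose, and 11.0% were lower and 15.5% higher at that p. The higher one was Nfe2l2, the factor that induces antioxidant enzymes, at 695 and 1094 in wild type against 1574 and 1646 in PEPCK-TAg (log2 change 0.87 ± 0.23, limma, adjusted p = 0.0628). Without wild-type array 2 its change was 1.20. Nr1h4, the bile acid receptor FXR, measured 1190 and 968 in wild type against 605 and 510 in PEPCK-TAg and fell by 0.93 ± 0.18 (limma, adjusted p = 0.0255). Arnt, the partner of the aryl hydrocarbon receptor, measured 103 and 91.1 in wild type against 38.4 and 36.7 in PEPCK-TAg and fell by 1.12 ± 0.25 (limma, adjusted p = 0.0403). Both transgenic values lay under the level near which the filter was set, so this probe set was tested only through its wild-type signals. A second Arnt probe set, below the filter, went the other way, at 22.6 and 33.2 against 42.7 and 33.6. Nr1i3, the receptor CAR that drives Cyp2b and Cyp2c genes, measured 527 and 538 in wild type against 85.7 and 273 in PEPCK-TAg in 1 of its 3 probe sets (log2 change -1.70 ± 0.45, limma, adjusted p = 0.0663). It was lower on both transgenic arrays in a second, at 576 and 520 against 155 and 387, and overlapped in the third. Nr1i2, the pregnane X receptor PXR that drives Cyp3a11, overlapped at 51.5 and 125 against 105.5 and 96.8. The call of Arnt was lost without any 1 array (adjusted p 0.0834 to 0.138), that of Nr1h4 without wild-type array 1 (0.0897) or PEPCK-TAg array 2 (0.0909), and Nr1i3 was called without PEPCK-TAg array 2 (adjusted p 0.000557) and with median centring (0.0403).

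Enzymes and transporters around these families gave the following counts, where 3.07% of all tested probe sets fell and 6.40% rose. Of 14 tested probe sets of other drug-metabolizing enzymes 1 fell, Ephx2, the soluble epoxide hydrolase gene, at 2082 and 2606 in wild type against 1122 and 1012 in PEPCK-TAg, by 1.12 ± 0.17 (limma, adjusted p = 0.0124). Nqo1, a quinone reductase gene of the same list, was higher on both transgenic arrays, at 47.0 and 186 against 19.8 and 24.0 (log2 change 1.65 ± 0.55, limma, adjusted p = 0.120). Only the signal on PEPCK-TAg array 2 lay above the level near which the filter was set, so the probe set was tested only through that array. Without PEPCK-TAg array 1 the log2 change of Nqo1 was 2.51. Its second probe set, below the filter, measured 8.0 and 18.3 in wild type against 46.5 and 246 in PEPCK-TAg. Of 6 tested probe sets of transporters 3 fell, namely the efflux pump gene Abcg2, by 0.88 ± 0.16 (limma, adjusted p = 0.0213), and both of the bile acid uptake gene Slc10a1. Another 3 efflux pump genes were below the filter and so untested in the fit reported, with both transgenic arrays higher. Abcb1a measured 1.7 and 1.4 in wild type against 94.1 and 72.6 in PEPCK-TAg, Abcb1b 3.0 and 1.8 against 26.4 and 15.0, and Abcc1 5.2 and 5.7 against 21.1 and 8.9. Without the filter Abcb1a passed (limma, adjusted p = 0.0112), while Abcb1b (limma, adjusted p = 0.0626) and Abcc1 (limma, adjusted p = 0.296) did not. Abcg2 measured 1420 and 1309 in wild type against 682 and 793 in PEPCK-TAg. Its call was lost without wild-type array 1 (adjusted p 0.0736) or PEPCK-TAg array 1 (adjusted p 0.0883). Slc10a1 measured 6635 and 3951 against 2491 and 1987 in the first probe set (limma, adjusted p = 0.0362) and 7427 and 5379 against 3702 and 2751 in the second (limma, adjusted p = 0.0368). Both calls of Slc10a1 were lost without wild-type array 1 (0.0747 and 0.116) or PEPCK-TAg array 2 (0.0836 and 0.117). Of 11 tested probe sets for the supply of sugar acid, sulfate and glutathione 0 passed, with a median of -0.07 and 1 higher at an unadjusted p under 0.05. That was Ugdh, which makes the sugar acid for glucuronidation, at 1721 and 2796 in wild type against 2997 and 4251 in PEPCK-TAg (limma, adjusted p = 0.161).

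**Figure D4:**
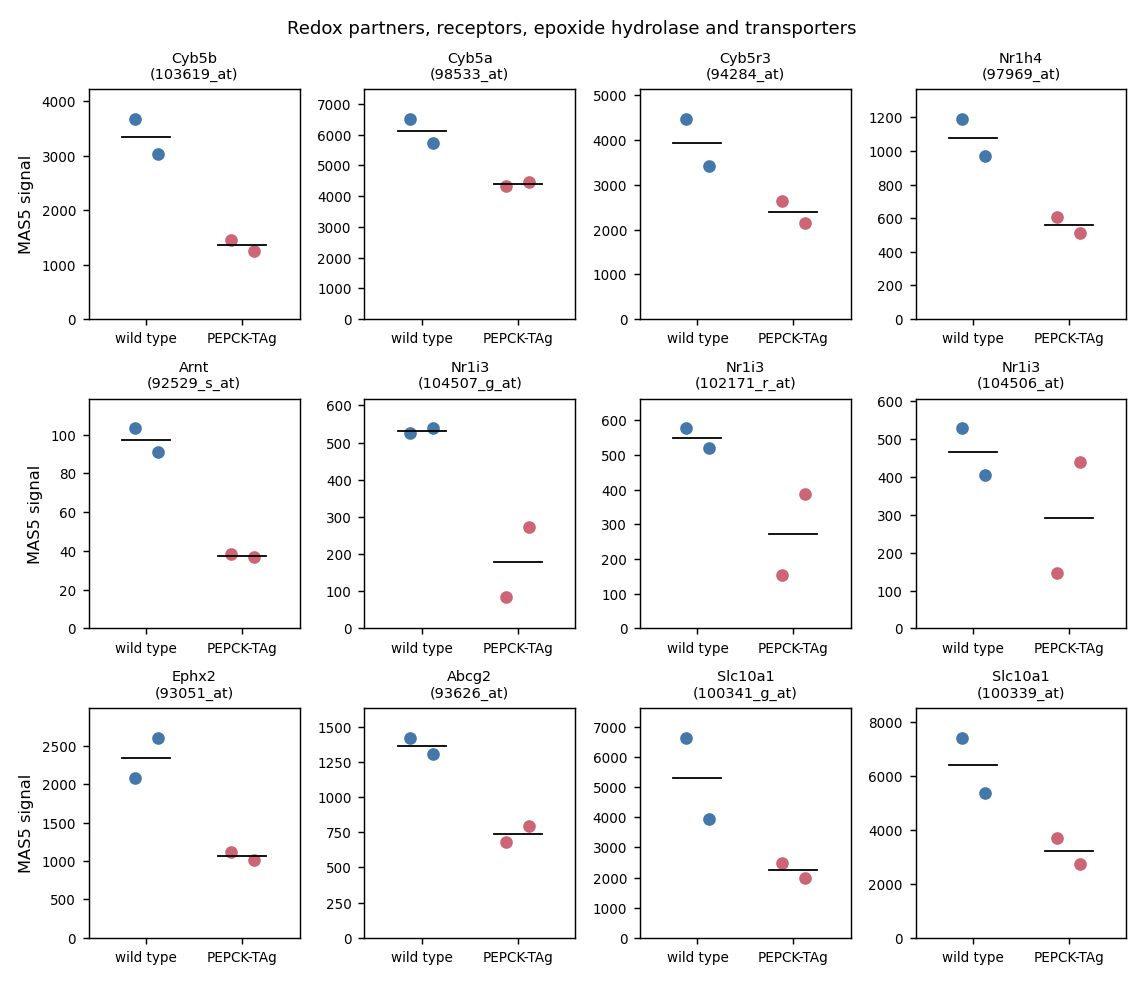
MAS5 signal (y axis, from 0) on each array for 12 probe sets of P450 electron donors, receptors, the soluble epoxide hydrolase and transporters, with replicate 1 left and replicate 2 right and a line at the group mean (n = 2). The PEPCK-TAg points of Cyb5b, Ephx2 and Abcg2 lie close together and below both wild-type points, while those of the 3 Nr1i3 probe sets lie far apart and in 1 of them overlap wild type.

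Other measures are given here by group, and not all of them moved with the groups. Among the 945 tested probe sets with a mean signal of at least 1000 the median log2 change was -0.16 and 113 (11.96%) were called lower. The 6508 below that level had a median of 0.04 and 116 calls lower (1.78%). The 30 members at or above it had a median of -0.46 and 7 calls lower (23.3%), and the 23 below it had -0.10 and 1 (4.35%). Hepatocyte markers (Alb, Ttr, Apoa1 and others) had a median of -0.30 over 14 tested probe sets with 1 called lower, and their summed signal was 79416 to 87506 in wild type and 60599 to 66422 in PEPCK-TAg. Groups were apart and lower for 10 of the 14, where 26.3% of all tested probe sets were, and 47.2% of those with a mean signal of at least 1000. They overlapped for 3 (Cps1, Apob and Hpd). Ass1 was higher on both transgenic arrays, at 515 and 585 against 473 and 324. Albumin itself measured 16723 and 14430 against 13339 and 12446. Of 6 probe sets of dividing cell markers 5 rose, and their summed signal was 303 to 376 in wild type and 3290 to 3798 in PEPCK-TAg. The wild-type signals of Cdk1, Birc5, Top2a and the Mki67 probe set that rose lay under the level near which the filter was set. These were thus tested only through their PEPCK-TAg signals. The other Mki67 probe set was lower on both transgenic arrays, at 70.1 and 75.1 against 99.1 and 81.9. Of 13 tested macrophage probe sets 4 rose, with summed signals of 3472 to 6254 and 10823 to 14174, and of 9 tested stellate cell probe sets 1 rose. Of 8 tested endothelial, 2 B and T cell and 2 red cell probe sets 0 passed in limma, with 2, 1 and 1 lower at an unadjusted p under 0.05. The defining bile duct (5 probe sets), lung (3) and kidney (3) markers were below the filter, at 1.7 to 53.7. The ratio of 3′ to 5′ signal, which falls with intact RNA, was 4.06 to 4.87 in wild type against 4.79 to 5.06 in PEPCK-TAg for actin, and 3.67 to 3.80 against 2.95 to 3.36 for Gapdh. The part of these measures in the changes of the enzymes was not tested.

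Textbook lists that cross these families held none of the genes called among the members, so no member on them was called. Of 11 tested probe sets of genes expressed around the central vein 2 fell, and of 6 of genes expressed around the portal vein 1 fell, none of them a member. Of 10 tested probe sets of genes induced through Nr1i3 or Nr1i2, 3 rose, all Cyp2b genes outside the members. Cyp2b13 had wild-type signals of 18.4 and 13.4, under the level near which the filter was set. It was thus tested only through its PEPCK-TAg signals. Cyp2b9 lay under that level on wild-type array 1, at 10.5, and above it on wild-type array 2, at 148. The listed members Cyp3a11, Cyp3a13, Cyp2c29, Cyp2c38, Aldh1a7 and Sult1d1 overlapped. Aldh1a1 was lower on both transgenic arrays in its tested probe set and did not pass. Of 4 tested probe sets of genes induced through the aryl hydrocarbon receptor 1 fell and 0 rose, and no member was called. Of 3 tested probe sets of male-predominant genes 2 fell, both of a gene outside the members. Of 4 of female-predominant genes 2 rose, again Cyp2b9 and Cyp2b13, outside the members. Of 9 tested probe sets of retinoid metabolism 2 fell, Rbp4 and Dhrs3, and no member was called.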

How the data were processed

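Total liver RNA of 2 wild-type and 2 PEPCK-TAg samples was measured on 1 array each. The deposited values are MAS5 signals, a linear intensity per probe set, per the submitters' processing notes. Not given in the sources used here are the MAS5 version, its scaling target and any detection calls; the 2% trimmed mean was 250.2 on each array. Of 12488 probe sets, 66 controls were left out. log2(signal + 13) was fitted with limma 3.58.1 in R 4.3.3 (lmFit, eBayes with a mean-variance trend, 2 residual and 4.614 prior degrees of freedom) on the 7453 probe sets at or above the 40th percentile of the mean. P-values are two-sided and Benjamini-Hochberg adjusted over all 7453, with a threshold of 0.05. The offset 13 is 5% of the trimmed mean. Exact permutation of 2 against 2 arrays cannot go under 0.3333, so it was not run. The number of arrays limits precision. On simulated data with 7453 probe sets for this comparison, 13% of 100 changes of log2 1 and 57% of 100 changes of log2 2 were recovered, with 2 false calls. The simulation took each probe set's own within-group spread, on 2 residual degrees of freedom, as its true spread. It also changed fewer probe sets than were called in the data, so recovery in the data may differ. Gene names came from the platform annotation, updated to RefSeq for all 80 member probe sets.

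The rule for naming gave full statistics to members past the threshold, the brightest member of each family, members with groups apart and a log2 change of at least 1, and, in each list of other genes, those past the threshold and up to 4 of smallest p. Statistics of other members with groups apart were added after their values were seen. The members and lists were chosen with earlier results of these data known. Alternatives covered the offset, filter, normalization, variance model, replicate block and each array left out.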

Additional observations from a re-analysis of the deposited data

How the results depend on the processing

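Both Cyp2d10 probe sets were called lower under each of the 13 alternatives (limma, adjusted p 0.000809 to 0.0294), and 0 members were called higher under any. Members called lower, 8 in the fit reported, numbered 2 without the filter, 5 with quantile normalization, 5 with cyclic loess, 3 without the mean-variance trend, and 4 to 8 with 1 array left out. With the replicate number as a block they numbered 17 and all tested probe sets called lower 444, against 229. The labels give the numbers no shared animal or day, and same-numbered arrays deviated together with a correlation of 0.181 over probe sets, so the block rests on a number only. The block kept all 8 calls and added 9, of Cyp2c38, Cyp4f13, Cyp4v3, Cyp17a1, Ces3a, Adh5, Ugt2b5 and the further probe sets of Ces1d and Aldh2. Calls of Ces1c, Ces1d and Aldh2 were lost with quantile normalization, with cyclic loess and without the trend, and that of Cyp2d26 with quantile normalization and without the trend. All tested probe sets called lower numbered 105 without the filter, 409 with median centring, 117 without the trend and 110 to 143 with 1 array left out, and those called higher 288 to 420 with 1 array left out. The median change of the tested members was -0.36, and -0.12 without the filter, where the 27 dim members entered. Over the same members it was -0.17 with cyclic loess and -0.23 with quantile normalization. Median centring moved the median of all tested probe sets to -0.14 and that of members to -0.51. The sign of the change turned for 4 tested members with quantile normalization, 2 with median centring, 5 with cyclic loess, 1 with an offset of 1 and 5 to 7 with 1 array left out. Among members with groups apart and listed genes described here, it turned for Adh1 with median centring (-0.0134) and for Aldh1a1 (0.0055) and Abcb4 (0.0100) with cyclic loess. With 1 array left out, Abcb4 ranged from -0.45 to 0.0507 and Ugp2 from -0.49 to 0.0096. Apart from the filter, the cause was not tested. With 1 array left out, the lone array is assumed to vary like the other group.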
